A study of Mus musculus with 9 samples.

Results

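The replication-dependent histone genes were followed through 9 poly(A) RNA-seq libraries of mouse embryonic stem (ES) cells in which the amount of Yap1, a transcriptional coactivator of the Hippo pathway, had been changed. Members were taken by symbol, as the genes of the deposited expression table whose names begin with Hist1h, Hist2h, Hist3h or Hist4h. This gave 61 of 18504 genes, of which 6 are of type H1, 15 of H2A, 17 of H2B, 12 of H3 and 11 of H4. The H2B row Hist3h2bb-ps is annotated as a transcribed pseudogene and was kept. In the annotation of the GRCm38 assembly, 49 members lie on chromosome 13, 8 on chromosome 3, 3 on chromosome 11 and 1 on chromosome 6.

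All libraries came from J1, an ES cell line derived from the mouse strain 129S4/SvJae and used here at passages 5 to 7, and they form 8 groups. Yap1_OE overexpressed Yap1 and has the control BirA. Yap1_KO1 and Yap1_KO2 are 2 libraries labelled as Yap1 knockouts, with the control ESC. Yap1_KD carried a Yap1 knockdown in ES cells and has a library named Control beside it. dESC_Yap1_KD carried the knockdown in differentiated ES cells, with the differentiated control dESC_control. Every group but the knockout one has 1 library. The labels give neither the vector, guide or hairpin, nor whether the knockouts are separate clones, nor how or for how long the cells were differentiated.

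Replication-dependent histone genes supply the core histones H2A, H2B, H3 and H4, around which DNA is wrapped in nucleosomes, and the linker histone H1, which binds the DNA between nucleosomes. They lie in clusters, mostly have no introns and are switched on together in S phase through the factor NPAT. Their mRNAs are known for ending in a conserved stem-loop in place of a poly(A) tail. The stem-loop is bound by SLBP and cut with the help of the U7 snRNP, and the mRNA decays when DNA synthesis stops. The values here are therefore levels of histone RNA that passed poly(A) selection, and the share of all histone RNA that this represents was not measured. In bulk RNA, fewer cells in S phase and less histone RNA per cell cannot be told apart.

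The stem-loop was looked for on the transcript strand in the 100 nt after each stop codon, in GENCODE transcripts of GRCm38, as the 16 letters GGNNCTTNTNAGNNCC. It was found in 41 of the 61 members, at a median of 31 nt (21 to 54 nt) after the stop codon. Of other transcripts, 10 of 40169 (0.0249%) held it. The annotation of 15 members ends within 30 nt of the stop codon, 1 member has no stop codon annotated, and Hist1h1a, Hist1h2bc, Hist2h2be and Hist2h3b had no match to these letters. The most common core was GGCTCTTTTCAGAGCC, in 23 members of types H1, H2A, H2B and H3, and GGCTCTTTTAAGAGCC was next with 6. Members of type H4 used their own cores, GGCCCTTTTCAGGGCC in 5, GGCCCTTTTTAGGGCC and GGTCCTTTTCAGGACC in 2 each and GGCCCTTCTCAGGGCC in 1. The 7 examples below have 5 flanking bases per side, with capitals for the stem-loop and T for U. Those of H1, H2A, H2B and H3 share the same stem, and their capitals differ at most in the loop. Those of H4 have other stems, which also differ from each other.
Hist1h1e: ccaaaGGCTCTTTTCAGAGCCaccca
Hist3h2a: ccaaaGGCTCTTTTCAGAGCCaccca
Hist3h2ba: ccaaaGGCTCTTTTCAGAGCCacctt
Hist1h3e: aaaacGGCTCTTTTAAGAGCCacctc
Hist1h3g: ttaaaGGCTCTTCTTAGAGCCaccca
Hist1h4d: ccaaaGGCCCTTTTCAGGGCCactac
Hist1h4b: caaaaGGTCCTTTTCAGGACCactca

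Promoters were compared over 55 members that have a window from 250 bases before to 50 bases after the gene start (RefSeq, GRCm38.p6), with motifs searched on both strands. The octamer ATTTGCAT, the site of the factor Oct-1 known from H2B promoters, was in 7 of 15 H2A and 7 of 14 H2B windows and in 0 of 6 H1, 0 of 10 H3 and 0 of 10 H4 windows. Of all promoter windows, 1.74% hold it. TATAAA was in 32 of 55 member windows (58.2%, against 13.6% of all windows). CCAAT was in 48 of 55 (87.3%, against 37.4%), and H4 stood apart with 3 of 10. A match is a description of the letters and not of binding. The windows of the H2B and H4 genes with the highest levels are shown, with these motifs in capitals on whichever strand they were found. The window of Hist2h2bb lies at chr3:96269450-96269749 on the plus strand and that of Hist1h4d at chr13:23581318-23581617 on the plus strand.
Hist2h2bb: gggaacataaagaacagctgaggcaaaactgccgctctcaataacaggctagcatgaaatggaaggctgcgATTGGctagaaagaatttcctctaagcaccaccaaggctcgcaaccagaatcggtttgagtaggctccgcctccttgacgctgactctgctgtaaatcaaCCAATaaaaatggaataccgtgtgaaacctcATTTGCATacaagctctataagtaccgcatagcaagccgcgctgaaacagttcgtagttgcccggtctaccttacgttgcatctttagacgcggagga
Hist1h4d: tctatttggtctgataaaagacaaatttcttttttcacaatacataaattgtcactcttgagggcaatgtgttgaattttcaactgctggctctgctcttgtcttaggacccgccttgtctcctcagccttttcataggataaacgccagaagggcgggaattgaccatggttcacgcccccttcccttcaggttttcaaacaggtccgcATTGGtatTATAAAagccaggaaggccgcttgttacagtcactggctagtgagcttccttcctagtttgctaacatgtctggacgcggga

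By the steps between low values, Yap1_KO1 was the shallowest library, at an estimated 9.08 M (mega) fragments, and Control the deepest, at 22.04 M. Yap1 stood at 139 FPKM in Yap1_OE against 46.7 in BirA, at 4.55 in Yap1_KD against 37.4 in Control and at 12.5 in dESC_Yap1_KD against 78.0 in dESC_control. The knockout-labelled libraries kept Yap1 RNA, with 57.3 FPKM in Yap1_KO1 and 27.6 in Yap1_KO2 against 65.4 in ESC, so directions drawn from them are those of libraries carrying that label. All 6 ES cell markers were above 1 FPKM in each library. Feeder fibroblast markers summed to 6.51 to 39.7 FPKM, with 4 or 5 of the 6 under 1 FPKM in each library. Thy1 gave most of the sum, from 4.64 FPKM in Yap1_OE to 39.2 in Yap1_KO1, except in dESC_control. There Col1a1 stood at 5.73 FPKM and Thy1 at 3.40.

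Histone RNA was present in every library. The authors' values are FPKM, which scales fragments by transcript length and by the size of the library, so genes are on a common scale. For the members it covers only RNA that passed poly(A) selection, a share that was not measured and may differ by gene. Of the 61 members, 57 reached 1 FPKM in at least 1 library and 49 in every library. The median member had a mean of 8.49 FPKM over the 9 libraries, and 12 members had 20 or more. The median of the members' means was 18.5 FPKM for H1, 5.76 for H2A, 8.75 for H2B, 7.63 for H3 and 17.8 for H4. Hist1h2ao, Hist2h2be, Hist2h3c1 and Hist2h3c2 stayed below 1 FPKM throughout. The testis variants were low too, with Hist1h1t at a mean of 1.01 FPKM, Hist1h2aa at 0.47 and Hist1h2ba at 0.502.

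Most of each type's RNA came from a few genes. Among linker histones Hist1h1e was highest (mean 33.8 FPKM, 18.3 to 51.5 over the libraries), followed by Hist1h1d (23.1) and Hist1h1c (20.2). Hist1h2ak (21.7), Hist3h2a (19.8) and Hist1h2ae (15.8) led H2A. Hist2h2bb was the highest member of all at 68.7 FPKM (40.7 to 94.3), ahead of the H2B genes Hist1h2bg (21.9) and Hist1h2bc (15.0). Hist1h3e led H3 with 46.2 FPKM, then Hist1h3c (25.7) and Hist1h3g (11.7). Hist1h4d led H4 with 57.9 FPKM, then Hist1h4k (33.8) and Hist1h4f (26.3). The 23 members annotated to run at least 100 nt past their stem-loop had a median mean level of 12.7 FPKM, the 18 annotated to end sooner 8.44 FPKM and the 20 without a stem-loop found 7.34 FPKM. Near-identical copies make single values uncertain, since 26 members share at least 50% of their 50-base stretches with another gene. Levels of such members, Hist2h2bb (53.6%), Hist1h3e (73.4%) and Hist1h2ak (52.3%) among them, depend on how shared reads were split.

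The members summed to 689 FPKM in Yap1_OE against 661 in BirA. The knockout-labelled libraries held 956 (Yap1_KO1) and 790 (Yap1_KO2) against 962 in ESC. Yap1_KD held 546 against 497 in Control, and dESC_Yap1_KD 1104 against 831 in dESC_control. The lowest sum, in Control, and the highest, in dESC_Yap1_KD, were both in knockdown arms, while BirA, ESC and Control, all undifferentiated controls, spread from 497 to 962 FPKM. H4 gave between 24.3% (Yap1_OE) and 33.0% (dESC_control) of the sum and H2B between 23.7% (dESC_Yap1_KD) and 28.3% (Yap1_OE and BirA). Of the 57 members that reached 1 FPKM, 30 had their lowest value in Control and 14 in Yap1_KD, where 8.78% and 16.5% of all genes had theirs. The highest value was in dESC_Yap1_KD for 27 members (12.3% of all genes), in Yap1_KO1 for 13 (8.31%) and in ESC for 11 (7.02%).

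**Figure D1:**
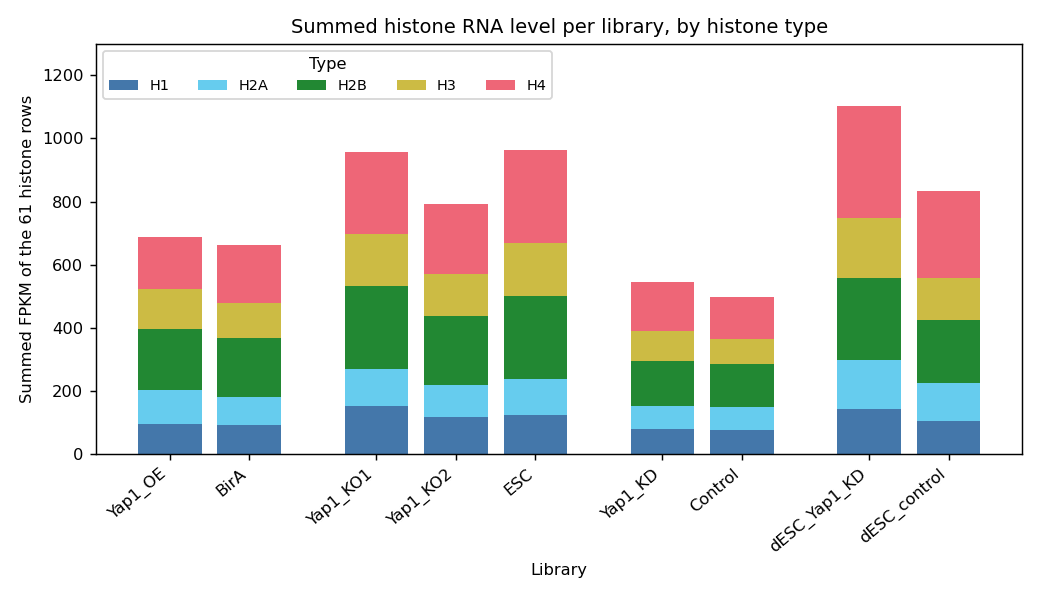
Summed FPKM of the 61 histone rows (y axis) in each of the 9 libraries (x axis), stacked by histone type, with each perturbed library left of its control; 1 bar is 1 library, so there is no error. The bars run from 497 FPKM in Control to 1104 FPKM in dESC_Yap1_KD, and all 5 types are visible in each.

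**Figure D2:**
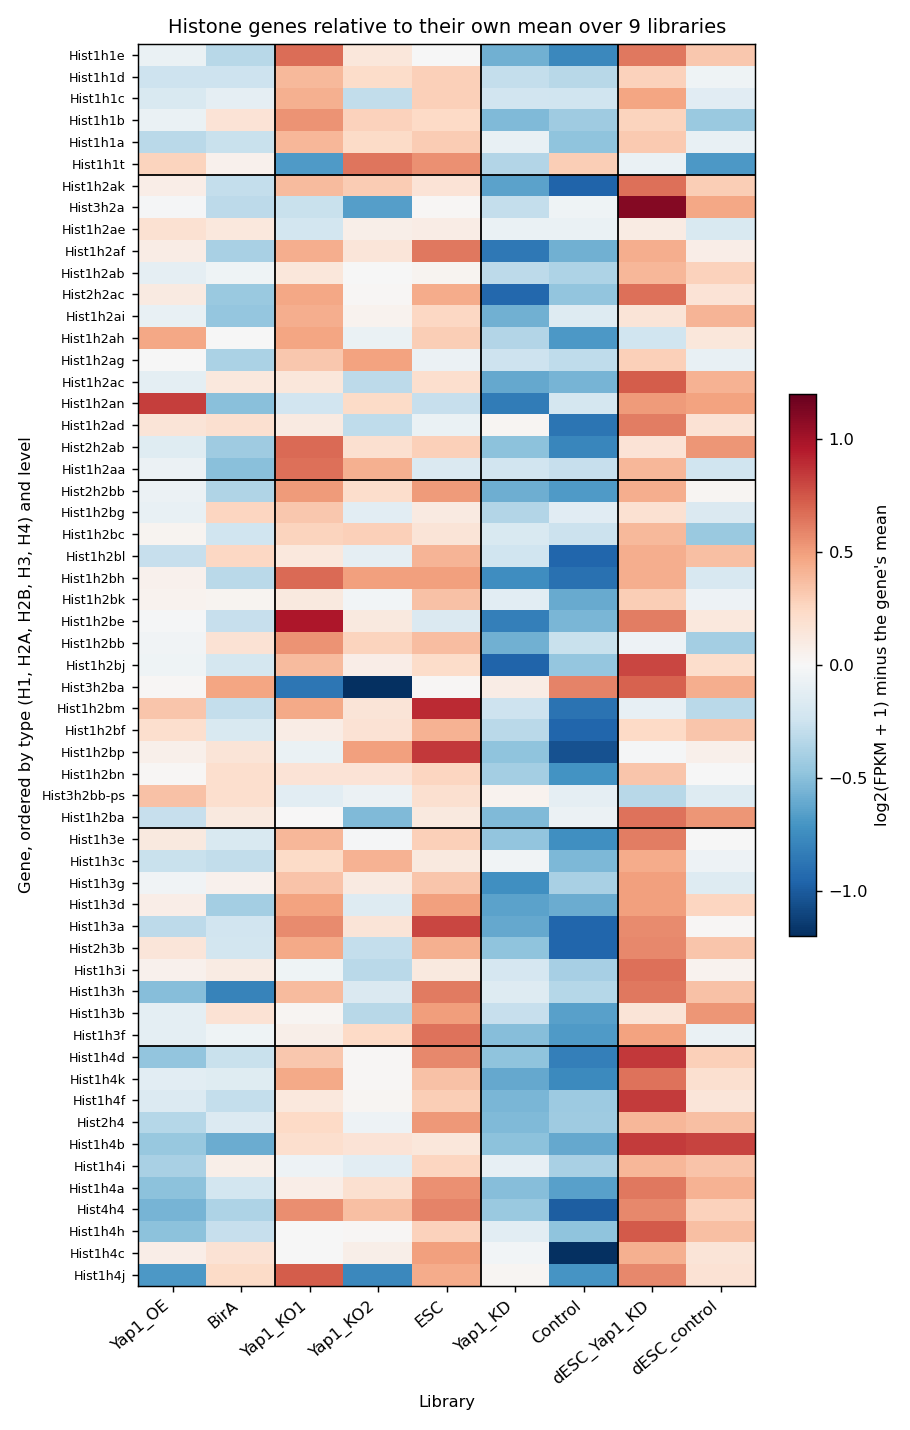
Level of 57 histone genes (rows, by type and then by mean level) in 9 libraries (columns, perturbed left of control), as log2(FPKM + 1) minus the gene's own mean over the libraries; red is above and blue below that mean. The Yap1_KD and Control columns are mostly blue and the dESC_Yap1_KD column mostly red, with Hist3h2ba blue in Yap1_KO1 and Yap1_KO2.

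The undifferentiated control libraries differed from one another in histone RNA, a difference that bears on each comparison below. Ratios are given as log2 of FPKM + 1, which understates those of low genes, and a gene entered a comparison when either side had a library at 1 FPKM. ESC over Control had a member median of 0.91 (53 members), with 52 above 0 where 50.8% of all genes were, and 21 at least 2-fold higher where 1.91% of all genes were. None reached 2-fold lower (3.02% of all genes). By type the ESC over Control median was 0.65 for H1, 0.76 for H2A, 0.95 for H2B, 1.05 for H3 and 1.11 for H4. The all-gene median was 0.01. ESC over BirA had a member median of 0.44, with 49 of 54 above 0 (52.1% of all genes), 4 at least 2-fold higher (0.686%) and 0 that far lower (1.14%). Control over BirA had a median of -0.44, with 6 of 53 above 0 (47.7% of all genes), 0 reaching 2-fold higher (1.23%) and 4 reaching 2-fold lower (0.409%). Hist1h4d shows the spread, with 81.4 FPKM in ESC, 44.9 in BirA and 30.3 in Control. Hist2h2bb stood at 94.3 FPKM in ESC, 50.9 in BirA and 40.7 in Control. The exception was Hist3h2ba, with 6.74 FPKM in ESC against 10.6 in Control. These libraries have no replicates, so no p can be given.

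Other cell cycle genes moved with this difference. In ESC over Control, 17 of 22 S-phase genes were above 0, with a median of 0.28, from Fen1 (a flap nuclease of lagging-strand synthesis) at 0.73 to Prim1 (a primase subunit) at -0.52. Cyclin-dependent kinase inhibitors and pocket proteins were lower in ESC, with 1 of 9 above 0 and a median of -0.78. Slbp, the stem-loop binding protein, stood at 72.8 FPKM in ESC, 70.6 in BirA and 66.6 in Control. Npat, the S-phase activator of histone genes, stood at 8.29, 8.22 and 8.85 FPKM in these libraries. The part of these genes in the histone difference was not tested.

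With Yap1 overexpressed, histone RNA was close to its control on balance. The Yap1_OE over BirA median was 0.01 over 54 members, against 0.02 over all genes, and 28 members were above 0 (52.3% of all genes). Against 1.6% of all genes, 1 member was at least 2-fold higher, Hist1h2an at 2.86 FPKM in Yap1_OE against 0.537 in BirA. It shares 85.8% of its 50-base stretches with another gene, and its fragments numbered at most about 1.8 to 29.3 per library. At least 2-fold lower were 0 members (2.35% of all genes). The types leaned in different directions. The H2A median was 0.37, with 9 of 12 members above 0, and the H4 median -0.18, with 3 of 11 above 0. H1 had a median of -0.04, H2B of 0.15 and H3 of -0.01. Many H2A members above 0, Hist1h2af, Hist1h2ah and Hist1h2ak among them, share at least 50% of their 50-base stretches with another gene. Hist2h2ac (0.56) and Hist3h2a (0.30) share less and were above 0 too. Without members that share so much, the median over all types was -0.07, with 13 of 31 above 0. An H2A median without them was not computed. Hist1h2ak stood at 21.8 FPKM in Yap1_OE against 16.6 in BirA and Hist1h4d at 38.6 against 44.9. The members furthest up among those at 5 FPKM or more were Hist1h2bm (0.61), Hist2h2ac (0.56), Hist1h3d (0.49), Hist1h2af (0.48) and Hist1h2ah (0.47). Furthest down were Hist1h2bl (-0.52), Hist1h4i, Hist3h2ba (-0.46 each), Hist1h2bg (-0.34) and Hist1h4a (-0.27).

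The replication-independent histones, whose genes are expressed outside S phase and whose mRNAs mostly carry poly(A) tails, were mostly lower. In Yap1_OE over BirA 2 of 12 were above 0, with a median of -0.32. The linker variant H1f0 stood at 45.4 FPKM in Yap1_OE against 81.6 in BirA, and H2afv, an H2A.Z variant, at 72.9 against 124. S-phase genes had a median of -0.08, with 9 of 22 above 0. The markers of differentiated derivatives summed to 200 FPKM in Yap1_OE against 26.5 in BirA, with 5 of 9 and 7 of 9 under 1 FPKM. Most of both sums came from Krt18 (130 FPKM in Yap1_OE against 17.5 in BirA) and Krt8 (63.4 against 7.32). T, Mixl1, Gata6, Sox17 and Cdx2 were under 1 FPKM in both libraries. The part of these genes in the histone values was not tested.

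In the knockout-labelled libraries histone RNA was slightly lower than in ESC on balance, mostly in types H3 and H4, and no member passed the test. The Yap1_KO over ESC median was -0.19 over 56 members, against 0.01 over all genes, with 17 members above 0 (50.8% of all genes). By type it was 0.02 for H1, -0.01 for H2A, -0.15 for H2B, -0.33 for H3 and -0.35 for H4. Above 0 were 1 of 10 H3 members, Hist1h3c at 0.21, and 1 of 11 H4 members, Hist1h4b at 0.05. Both libraries lay below ESC for 27 of 56 members (39.8% of all genes) and both above for 11 (41.6%). Hist1h4d stood at 67.9 and 54.7 FPKM in Yap1_KO1 and Yap1_KO2 against 81.4 in ESC. Hist1h3b, another H3 gene, stood at 4.02 and 2.94 FPKM against 6.01 in ESC. On the other side Hist1h1e stood at 51.5 and 35.3 FPKM against 31.9 in ESC, and Hist1h2be at 20.6 and 10.96 against 8.81.

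limma, fitted over all 11538 genes with Benjamini-Hochberg adjustment, called 0 of 56 members at 0.05 in either direction, where it called 0.0173% of all genes higher and 0.156% lower. At an unadjusted limma p under 0.05 there were 2 members higher (12.6% of all genes) and 7 lower (10.5%). The member furthest down was Hist3h2ba, at -1.19 with a standard error of 0.31 (limma adjusted p = 0.167), the 1 member at least 2-fold lower (1.51% of all genes). No member was at least 2-fold higher (0.511% of all genes). Hist1h3b followed at -0.66 (SE 0.21, limma adjusted p = 0.194), then Hist1h2bp (-0.64), Hist1h2bm (-0.59) and Hist1h3h (-0.52). Hist1h2be was highest at 0.71 (SE 0.38, limma adjusted p = 0.333), followed by Hist1h2ag (0.47) and Hist1h1e (0.41). The pair disagreed on the size, and the median was -0.29 without Yap1_KO1 and -0.001 without Yap1_KO2. It was -0.01, with 27 of 56 above 0, once a trend of log2 values with GC content was removed, and other genes of the members' middle GC range had a median of -0.16.

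Factors of histone expression were also set beside the knockout-labelled libraries, and limma called 0 genes of any list. Slbp stood at 77.6 and 87.2 FPKM in Yap1_KO1 and Yap1_KO2 against 72.8 in ESC. Casp8ap2, a component of histone locus bodies, stood at 24.6 and 25.8 against 17.9, and Npat at 13.1 and 13.6 against 8.29. Of all 19 genes of 3' end processing 6 were above 0, with a median of -0.08, and Lsm10, a subunit of the U7 snRNP, was lowest at -0.38. Of 9 histone promoter factors 5 were above 0, with a median of 0.23, from Ccne2 (cyclin E2) at 0.77 to E2f1 at -0.36. Of 22 S-phase genes 7 were above 0, with a median of -0.10, and of 13 histone chaperones 5, with a median of -0.17. The replication-independent histones had a median of -0.05, with 4 of 12 above 0.

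With Yap1 knocked down in ES cells, histone RNA was slightly higher than in its control on balance. The Yap1_KD over Control median was 0.15 over 53 members, against 0.01 over all genes, and 37 members were above 0 (51.5% of all genes). By type it was 0.03 for H1, 0.001 for H2A, 0.15 for H2B, 0.23 for H3 and 0.29 for H4, with 9 of 11 H4 members above 0. Hist1h4c was the 1 member at least 2-fold higher (0.506% of all genes), at 6.52 FPKM in Yap1_KD against 2.003 in Control. Its low value is that of Control, since it lay between 6.52 and 9.85 FPKM in each of the other 8 libraries. None was at least 2-fold lower (0.506% of all genes). Hist1h2bl stood at 11.4 FPKM in Yap1_KD against 6.57 in Control, Hist1h2bm at 5.29 against 3.05 and Hist4h4 at 7.87 against 5.08. Lower in the knockdown were Hist3h2ba (7.16 FPKM against 10.6 in Control) and Hist1h2bj (3.76 against 5.69). S-phase genes were above 0 in 16 of 22, with a median of 0.14, and replication-independent histones in 3 of 12, with a median of -0.10.

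Both ways of lowering Yap1 in ES cells were then fitted together, each arm against its own control. limma called 0 of 56 members over 12128 genes, where it called 0% of all genes higher and 0.0165% lower. At an unadjusted limma p under 0.05 there were 0 members higher (2.77% of all genes) and 1 lower (3.98%), Hist3h2ba, at -0.89 (SE 0.25, limma adjusted p = 0.660). The joint member median was -0.06, with 25 of 56 above 0. The arms leaned apart for H4, with medians of -0.35 in Yap1_KO over ESC and 0.29 in Yap1_KD over Control, and for H3, with -0.33 and 0.23. That difference was not tested.

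In differentiated cells the knockdown library had more histone RNA than its control across all 5 types. The dESC_Yap1_KD over dESC_control median was 0.35 over 54 members, against -0.01 over all genes, with 48 members above 0 (48.5% of all genes). By type it was 0.40 for H1, 0.31 for H2A, 0.34 for H2B, 0.53 for H3 and 0.29 for H4. Above 0 were 5 of 5 H1, 10 of 13 H2A, 13 of 15 H2B, 9 of 10 H3 and 11 of 11 H4 members. The shift was broad and small, since 0 members reached 2-fold higher (1.71% of all genes) and 0 reached 2-fold lower (4.77% of all genes).

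The highest member, Hist1h2bc, stood at 19.6 FPKM in dESC_Yap1_KD against 10.5 in dESC_control, a log2 ratio of 0.83. The linker histone gene Hist1h1b stood at 19.7 FPKM against 11.6 in dESC_control. Hist1h4f stood at 45.9 against 28.1, Hist1h3g at 16.3 against 10.1 and Hist3h2a at 40.9 against 25.9. The most abundant members shared the direction, with Hist1h4d at 98.7 FPKM against 66.1 in dESC_control and Hist2h2bb at 89.0 against 66.9. Hist1h3e stood at 68.5 FPKM against 44.3 in dESC_control. Members below their control were Hist1h2ah (4.54 FPKM against 6.19) and Hist1h3b (4.51 against 6.15), both at -0.38, and Hist1h2ai (7.13 against 8.71) at -0.26. With members that share most of their sequence with other genes left out, the median was 0.35. Each group is 1 library, so no p can be given, and the median is smaller than the 0.91 between the controls ESC and Control.

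Markers of differentiation moved with this comparison. Markers of undifferentiated ES cells summed to 1586 FPKM in dESC_Yap1_KD against 1171 in dESC_control, mostly from Pou5f1 (1115 against 927). Of these 6 markers 5 were above 0, while Klf4 was lower, at 5.83 FPKM against 9.10 in dESC_control. Markers of differentiated derivatives summed to 196 FPKM against 1429, with 2 of 9 under 1 FPKM in both libraries. Most of both sums came from Krt18 (102 FPKM in dESC_Yap1_KD against 832 in dESC_control) and Krt8 (65.3 against 486). Of the 7 markers past the filter, 0 were above 0, with Gata4 level at 1.43 FPKM in both libraries. Of 22 S-phase genes, which include the replicative helicase subunits, 17 were above 0, with a median of 0.15, and 3 of 8 kinase inhibitors and pocket proteins, with a median of -0.13. E2f1, an S-phase transcription factor, was the highest of the histone promoter factors at 0.85. Of the replication-independent histones 6 of 12 were above 0, with a median of -0.002. Slbp stood at 45.5 FPKM in dESC_Yap1_KD against 53.8 in dESC_control and Npat at 8.87 against 8.47. The part of these genes and markers in the histone values was not tested.

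**Figure D3:**
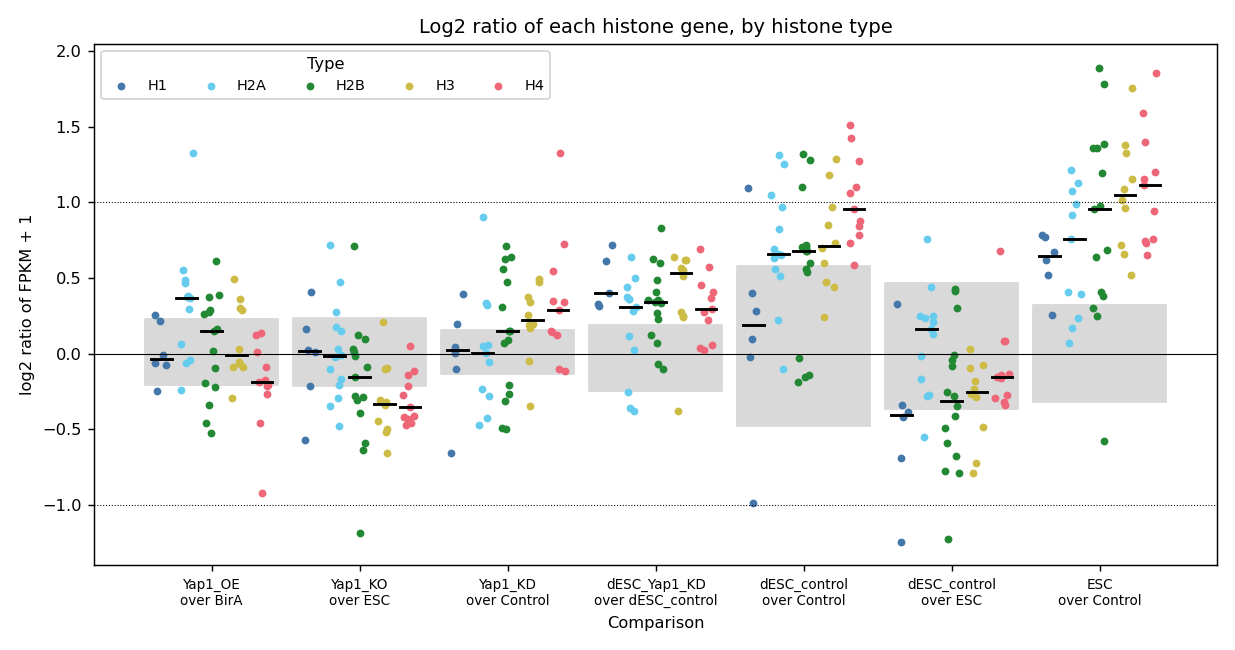
Log2 ratio of FPKM + 1 (y axis) for each histone gene past the filter, in 7 comparisons (x axis) and coloured by type; black bars are medians by type, grey boxes the middle 50% of all genes and dotted lines 2-fold. The type medians of ESC over Control, between undifferentiated controls, run from 0.65 to 1.11 and lie above those of each comparison of a Yap1 library with its own control, the highest of which is 0.53 for H3 in dESC_Yap1_KD over dESC_control.

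Differentiation itself was compared through the knockdown control, as dESC_control over Control, and through the knockdown libraries. The labels do not state that Control is the starting culture of dESC_control. Histone RNA was higher in dESC_control, with a median of 0.70 over 55 members against 0.04 over all genes and 48 members above 0 (52.2% of all genes). A 2-fold higher level was reached by 14 members (13.1% of all genes) and a 2-fold lower one by 0 (10.1% of all genes). With the GC trend removed the count was 6 members higher (11.5% of all genes) and 1 lower (11.2%). A pseudocount of 5 left 3 higher, and the share of all genes at that setting was not computed. By type the median was 0.19 for H1, 0.66 for H2A, 0.68 for H2B, 0.71 for H3 and 0.96 for H4, and 11 of 11 H4 members were above 0. Hist1h4b stood at 33.3 FPKM in dESC_control against 11.8 in Control, Hist1h2bl at 17.9 against 6.57 and Hist2h3b at 9.42 against 3.28. Hist1h2bf stood at 8.28 FPKM in dESC_control against 2.82 in Control. Hist1h1e was the 1 linker gene 2-fold higher, at 40.2 FPKM against 18.3 in Control. Lower or level were Hist1h2bc (10.5 FPKM in dESC_control against 12.1), Hist3h2ba (9.38 against 10.6), Hist1h2bb (7.58 against 8.46), Hist1h2ae (13.7 against 14.8) and Hist1h2bg (19.2 against 19.6).

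The choice of undifferentiated control decided this direction. dESC_control over ESC had a median of -0.21, with 16 of 56 members above 0 (49.8% of all genes), 0 that reached 2-fold higher (12%) and 2 that reached 2-fold lower (6.78%). dESC_control over BirA had a median of 0.29, with 37 of 55 above 0 (52% of all genes), 2 that reached 2-fold higher (11.9%) and 0 that reached 2-fold lower (7.61%). H2A was above 0 against each of the 3 controls, with medians of 0.66 over Control, 0.17 over ESC and 0.47 over BirA, while the H4 median was -0.15 over ESC. Hist1h1e and Hist1h2ak were among the members higher in dESC_control than in each of these controls. Hist1h1e stood at 40.2 FPKM in dESC_control, against 31.9 in ESC, 25.2 in BirA and 18.3 in Control.

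Between the knockdown libraries the difference was wider. dESC_Yap1_KD over Yap1_KD had a median of 0.83 over 54 members, against 0.003 over all genes, with 53 above 0 (50.2% of all genes). A 2-fold higher level was reached by 23 members (10.3% of all genes) and a 2-fold lower one by 0 (10.4% of all genes). With the GC trend removed the count was 16 members higher (9.44% of all genes) and 0 lower (10.7%). A pseudocount of 5 left 11 higher, a setting at which the share of all genes was not computed. The H2A median was 1.01, H3 1.03, H4 1.02, H1 0.71 and H2B 0.60. Hist1h2bj stood at 15.2 FPKM in dESC_Yap1_KD against 3.76 in Yap1_KD, Hist2h2ac at 11.8 against 3.20 and Hist1h2be at 15.9 against 5.25. Hist3h2a stood at 40.9 FPKM in dESC_Yap1_KD against 15.1 in Yap1_KD, and Hist1h4f at 45.9 against 16.9. Closest to level were Hist1h2bm (5.96 FPKM against 5.29 in Yap1_KD) and Hist1h2ae (16.9 against 14.8).

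Most replication-independent histones were lower in differentiation. The members went the other way over Control and BirA and between the knockdown libraries. Over ESC the member median was below 0 too, at -0.21. In dESC_control over Control 1 of 12 replication-independent histones was above 0, with a median of -0.47, and in dESC_Yap1_KD over Yap1_KD 1 of 12, with a median of -0.61. They were also lower against the other controls, with 1 of 12 above 0 in dESC_control over ESC and over BirA and medians of -0.50 and -0.73. H2afz, the H2A.Z gene, stood at 41.6 FPKM in dESC_control against 57.3 in Control, 65.3 in ESC and 74.3 in BirA. H2afx, whose protein marks DNA breaks when phosphorylated, stood at 225 FPKM in dESC_control against 311 in Control. H3f3b, an H3.3 gene, was level, at 211 FPKM against 205 in Control. S-phase genes were lower as well, with 5 of 22 above 0 and a median of -0.19 in dESC_control over Control and 0 of 22 and -0.54 in dESC_control over ESC. Slbp stood at 53.8 FPKM in dESC_control against 66.6 in Control. Of the kinase inhibitors and pocket proteins 4 of 9 were above 0 in dESC_control over Control, with a median of -0.38, from Cdkn1a (the inhibitor p21) at 0.93 to Rbl1 (the pocket protein p107) at -1.13.

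Hist3h2ba, an H2B gene of the small cluster on chromosome 11, lay on the other side of 0 from most members in some comparisons. These included ESC over Control (-0.58), Yap1_KD over Control (-0.50) and dESC_control over Control (-0.15). It went with most members in Yap1_KO over ESC and in both comparisons that hold dESC_Yap1_KD. It stood at 6.73 FPKM in Yap1_OE against 9.61 in BirA. In the knockout-labelled libraries it stood at 3.20 and 1.75 FPKM against 6.74 in ESC, below its level in each of the other 7 libraries. In Yap1_KD it stood at 7.16 FPKM against 10.6 in Control, and in dESC_Yap1_KD at 11.5 against 9.38 in dESC_control. It was thus lower than its own control in each Yap1 library of undifferentiated cells, but for overexpression and knockdown this rested on the control, since its log2 ratio over ESC was -0.001 in Yap1_OE and 0.08 in Yap1_KD. In the knockout-labelled libraries its ratio was -1.64 over BirA and -1.76 over Control. Its 3' end holds the common stem-loop core printed above, and 22.1% of its 50-base stretches are shared with another gene. The fragments behind its values numbered at most about 10.1 to 107.5 per library. Its neighbour in the cluster, Hist3h2a, shared the direction in Yap1_KO over ESC, Yap1_KD over Control and both comparisons that hold dESC_Yap1_KD. Hist3h2a went the other way under overexpression, with 18.4 FPKM in Yap1_OE against 14.8 in BirA. It also did so in ESC over Control (0.07) and dESC_control over Control (0.51). Hist3h2a stood at 15.3 and 11.4 FPKM in the knockout-labelled libraries against 18.8 in ESC, and at 15.1 in Yap1_KD against 17.9 in Control.

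**Figure D4:**
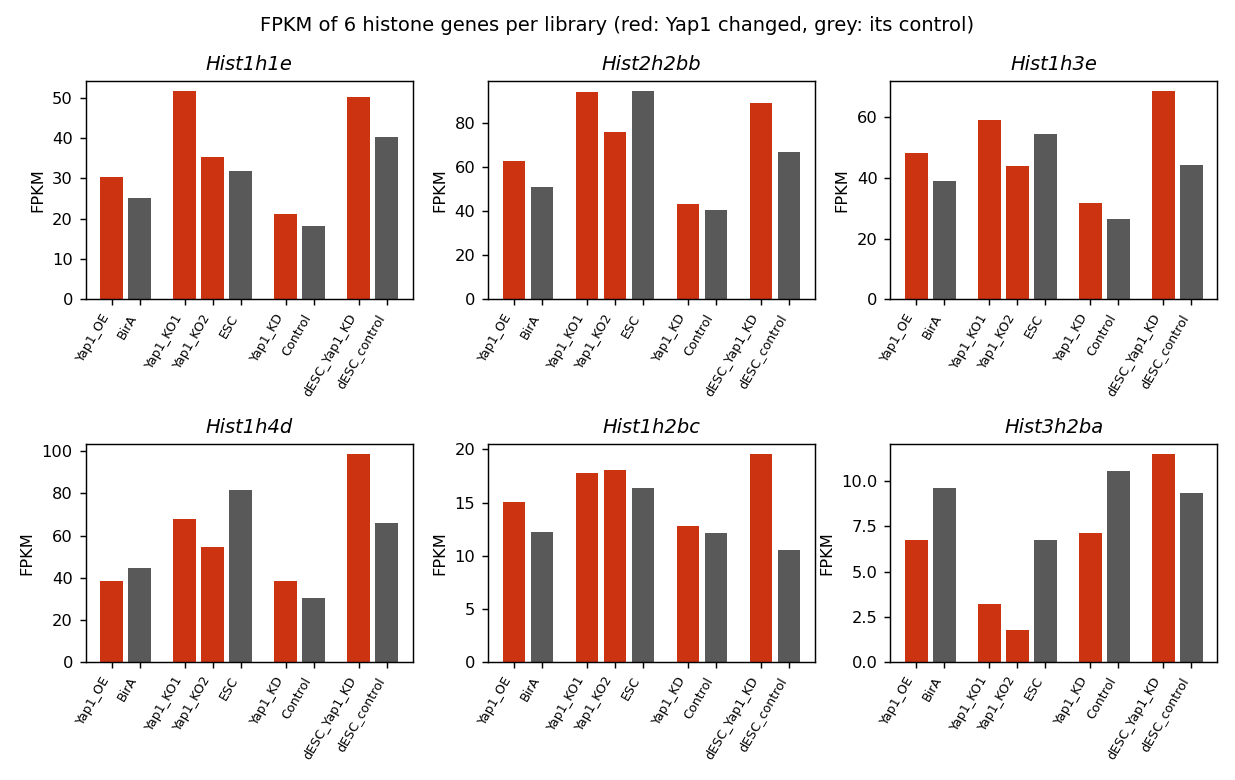
FPKM (y axis) of 6 histone genes in the 9 libraries (x axis), with perturbed libraries in red left of their controls in grey; 1 bar is 1 library. Hist1h1e, Hist2h2bb, Hist1h3e and Hist1h4d are lowest in Control, Hist1h2bc peaks at 19.6 FPKM in dESC_Yap1_KD, and Hist3h2ba is lowest in Yap1_KO1 and Yap1_KO2, at 3.20 and 1.75 FPKM.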

How the data were processed

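Polyadenylated RNA of 9 J1 ES cell libraries was measured by RNA-seq. The authors deposited 1 table of gene-level values, taken as FPKM, since the submitters' processing notes name TopHat2, Cuffdiff and the build mm9 and the table itself names no unit. Annotation, strandedness and versions: not given in the sources used here. Cuffdiff estimates values, so a 0 can be a failed estimate, and single-exon genes with near-identical copies are uncertain. Of 23277 rows, 4746 blank rows and 27 whose symbol had become a date were left out, and 0 columns were unmatched. In the 18504 genes, 176 small RNA rows took 16.0% to 23.8% of the summed FPKM.

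Ratios are differences of log2(FPKM + 1), for genes with a compared library at 1 FPKM or above. Comparisons of 1 library with 1 are counts past 2-fold and medians, with no p-value. Moderated tests used limma 3.58.1 (R 4.3.3), with its trend option and p-values adjusted by Benjamini-Hochberg, called at 0.05. A first design set the knockout pair against ESC and left 1 residual degree of freedom. Another joined the knockdown arm through a term for the arm and left 2. Both assume that a lone control varies as the knockout pair does. Nothing says that the pair came from separate cultures, so p-values cover the spread of these samples alone, possibly a technical one. The fits were also run on simulated data. Noise in each simulated library was drawn at the spread of the knockout pair, so this cannot check the assumption on the lone control. Depth was estimated from the steps between low FPKM values, over 200 genes with quartiles of 7.4 to 14.8 M fragments for BirA. For the 57 members with a span under 1000 nt it allows at most about 4510 (Yap1_KO1) to 8030 (dESC_control) fragments in all per library. These limits cover counting error only.

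Members were matched by symbol or synonym to RefSeq (61 of 61). GRCm38 served for transcripts, GC content and sequences, and the only coordinates given are of its promoter windows. Named members are the 3 highest per type by mean FPKM and the 5 highest and 5 lowest log2 ratios per comparison among members at 5 FPKM or more. Of other lists, counts, the extremes, Yap1, Slbp, Npat and Casp8ap2 are named. Some genes were named outside that rule or beside another comparison, with their values known. Members among them are Hist1h1t, Hist1h2aa, Hist1h2ba, Hist1h2an and, in the knockout comparison, Hist1h4b. The others are H1f0, H2afv, H2afz, H2afx, H3f3b and, in the knockout comparison, Dcp2. The members and lists were chosen with earlier results of these data known. The alternatives were other pseudocounts, filters and scalings, removal of a GC trend, a knockout library left out, other controls, and members that share sequence left out.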

Additional observations from a re-analysis of the deposited data

Results flagged for a closer look

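Some named members lay on opposite sides of their control in paired comparisons. In each case both sides are 1 library against 1, and the difference was not tested.

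For the knockdown of Yap1, 18 of 51 members past the filter in both comparisons differed in sign between differentiated and undifferentiated cells, 14 of them higher in dESC_Yap1_KD and lower in Yap1_KD than their controls. Over all genes 42.2% differed in sign and 20.8% in that way. Log2 ratios of dESC_Yap1_KD over dESC_control and of Yap1_KD over Control were 0.27 and -0.50 for Hist3h2ba, and 0.60 and -0.49 for Hist1h2bj. Hist1h3g had 0.64 and -0.35, and Hist1h2bb 0.34 and -0.31. For Hist1h1b they were 0.71 and -0.10, for Hist1h4f 0.69 and -0.11 and for Hist3h2a 0.64 and -0.23. The opposite pattern was seen in Hist1h2ah with -0.38 and 0.34, Hist1h3b with -0.38 and 0.37, Hist1h2bf with -0.10 and 0.63 and Hist1h2bp with -0.07 and 0.56.

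For differentiation, 6 of 53 members differed in sign between the knockdown and the control libraries, each higher in the knockdown. Over all genes 15.2% differed in sign. Log2 ratios of dESC_Yap1_KD over Yap1_KD and of dESC_control over Control were 0.58 and -0.19 for Hist1h2bc and 0.62 and -0.15 for Hist3h2ba. They were 0.51 and -0.14 for Hist1h2bb, 0.18 and -0.10 for Hist1h2ae and 0.53 and -0.03 for Hist1h2bg. The libraries of this pair of comparisons are those of the knockdown pair above, so the same values enter both.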

How the results depend on the processing

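limma called 0 members in either direction under each alternative run, in both fits. Of 58 alternative medians 10 moved by more than 0.195, the SD of the medians of the knockout-labelled pair, and 8 changed sign. The main medians of Yap1_OE, Yap1_KO and Yap1_KD are smaller than this SD, so they could vanish without counting as moved. The Yap1_KO median nearly did, at -0.01 with the GC trend removed and -0.001 without Yap1_KO2. With another undifferentiated control, added after the data were seen, the Yap1_OE median (0.01 over BirA) was -0.38 over ESC and 0.44 over Control. The Yap1_KO median (-0.19 over ESC) was 0.34 over BirA and 0.78 over Control. The Yap1_KD median (0.15 over Control) was -0.26 over BirA and -0.77 over ESC, and the dESC_control median (0.70 over Control) was 0.29 over BirA and -0.21 over ESC. A pseudocount of 5 gave 0.44 for dESC_control over Control and 0.54 for dESC_Yap1_KD over Yap1_KD. The Yap1_OE median was -0.005 after rescaling and -0.07 without members that share sequence. Leaving out a knockout-labelled library gave -0.29 to -0.001, and the cause of these shifts was not tested. With BirA and Control added to ESC as controls, the limma fit of the knockout-labelled libraries had a member median of 0.33, with 46 of 56 above 0. Of 556 values of named members, 452 moved by less than the gene's own SD over the knockout-labelled pair. That count was partly fixed in advance, since other filters and the exclusion of members leave a gene's own ratio as it was. Leaving out a knockout-labelled library also moves a ratio by less than that SD in any case. Of the 80 values with another control 30 changed sign, and with the remaining alternatives 0 did. Many of the latter could not, since another pseudocount cannot change the sign of a ratio of 1 library to 1. In 7 of the 30 the member had been at least 2-fold apart. Hist1h4c in Yap1_KD was -0.21 over BirA and -0.53 over ESC, and in dESC_control -0.021 over BirA and -0.34 over ESC. In dESC_control over ESC, Hist1h2bl was -0.045, Hist2h3b -0.10 and Hist1h2bf -0.08. No paired analysis was possible because each control group has 1 library, so the groups compared share fewer than 2 replicate numbers. Depth limits members under 1 FPKM most, such as Hist1h2ao at 0.0 to 1.5 fragments at most.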

Other observations

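Genes that process, degrade or escort histone mRNA or protein were counted in the same comparisons. Of 19 genes of histone mRNA 3' end processing, 16 were above 0 in ESC over Control, with a median log2 ratio of 0.14, from Zfp473 (a zinc finger protein of the U7 complex) at 0.58 to Snrpe (a core snRNP protein) at -0.35. In dESC_Yap1_KD over dESC_control 11 of the 19 were above 0, with a median of 0.04, and in dESC_control over Control 9, with a median of -0.01. Of 10 genes of histone mRNA decay, 3 were above 0 in Yap1_KD over Control, with a median of -0.13. Among them Dcp2, the decapping enzyme, was lowest both in Yap1_KD over Control (-0.81) and in dESC_Yap1_KD over dESC_control (-0.67), comparisons that share no library. In Yap1_KO over ESC Dcp2 went the other way, at 0.46. It stood at 34.0 and 34.1 FPKM in Yap1_KO1 and Yap1_KO2 against 24.5 in ESC, and the joint fit gave -0.09.

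Of 13 histone chaperones, 9 were above 0 in dESC_Yap1_KD over dESC_control, with a median of 0.15. Asf1a, which carries H3 and H4 to sites of assembly, was the highest at 0.57, and also the highest in dESC_Yap1_KD over Yap1_KD, at 1.12, a comparison that shares dESC_Yap1_KD with it. In dESC_control over Control 6 of 13 were above 0, with a median of -0.01. Hat1, which acetylates new H4, was the lowest there at -1.01, while H4 genes themselves had a median of 0.96. This contrast depended on the control. Over BirA Hat1 was at -0.96 and the H4 median 0.53, but over ESC both were lower, at -0.83 and -0.155. But for Yap1_KO over ESC and the joint fit, each of these comparisons is 1 library against 1, with no test.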
